A study of Rattus norvegicus with 8 samples.

Results

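Of the 9 growth factor genes examined here, Igf1 and Pdgfa were several-fold higher in peritoneal macrophages after CNT-7 than after CNT-T. Hgf and Hbegf were modestly higher, and none was significantly lower. The groups overlapped for Hbegf, and its call was lost when some single rats were left out. The 9 genes were Igf1, Pdgfa, Pdgfb, Pdgfc, Vegfb, Hbegf, Areg, Hgf and Osm, taken by symbol from a table of 23487 genes, and each was found under 1 Ensembl identifier. Macrophages were sorted from the peritoneal cavity of Wistar rats, 8 weeks old, 15 days after injection of needle-like carbon nanotubes (MWCNT-XNRI-7, CNT-7) or tangled carbon nanotubes (CNT-T), with 4 rats per particle. The CNT-7 rats are numbered 3, 5, 10 and 11 and the CNT-T rats 1, 2, 12 and 13 in the labels, and each number names 1 rat. No untreated rats were analysed here, so that every difference is one between both particles. The comparison asks how macrophages that refill the cavity after a mesotheliomagenic particle differ from those that refill it after a non-mesotheliomagenic one.

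Macrophages release growth factors that act on the cells around them. IGF-1 drives growth and survival of fibroblasts, epithelial cells and macrophages themselves. The PDGF chains A, B and C pair into dimers that stimulate fibroblasts and other mesenchymal cells. VEGF-B acts on vessels through the receptor Flt1. HB-EGF and amphiregulin (Areg) are membrane-anchored ligands of the EGF receptor that must be cut free, HGF activates the receptor Met on epithelial and mesothelial cells, and oncostatin M (Osm) is a cytokine of the IL-6 family that acts on stromal cells.

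The macrophage identity of the samples was visible in all rats, since the 7 macrophage markers reported (Csf1r, Cd68, Mertk, Adgre1, Lyz2, C1qa and C1qb) all reached at least 61.3 CPM (counts scaled to library size by TMM) in every rat. Of these 7, Csf1r, Cd68, Adgre1 and C1qb were called lower with CNT-7, by log2 fold changes of -0.33 to -1.13, and the other 3 were not called. Libraries held 27394995 to 30215063 counts (CNT-7) or 27195157 to 33732981 counts (CNT-T), and 3 counts correspond to between 0.0884 and 0.108 CPM. Markers of 9 other cell types were summed in each rat, and the lowest adjusted p-value of the 9 differences was 0.171 (exact permutation test, two-sided). The smallest unadjusted p that 4 rats against 4 allow is 0.0286. After adjustment over 9 lists this test can thus hardly call a difference, and it does not show equal levels. Upk3b of mesothelial cells, Epx of eosinophils, Mpo of neutrophils and Gp9, Gp1ba, Gp1bb and Gp5 of platelets had no count in any rat. The sum of 7 neutrophil markers was 33.8 to 62.7 CPM (CNT-7) and 26.1 to 68.7 CPM (CNT-T), most of it Csf3r. S100a8 was called lower with CNT-7 (edgeR, log2 fold change -1.46, adjusted p = 0.016). S100a9, Elane, Cxcr2 and Csf3r were not called, and Camp was too low to be tested. The summed level of 6 T cell markers ran from 15.7 to 58.9 CPM (CNT-7) and from 4.78 to 15.7 CPM (CNT-T). Of these 6, Il7r and Cd2 were called higher, Lck was not, and Cd3d, Cd3e and Cd3g were too low to be tested, with Cd3e at most 2.11 CPM. Most of the T cell sum in the CNT-7 rats was Il7r, with 11.6 to 52.5 CPM against 0.99 to 11.8 CPM in the CNT-T rats. The sum of 3 endothelial markers was lower without overlap, 14.9 to 26.8 CPM against 33.0 to 47.9 CPM, most of it Tek. The unadjusted p of this sum was 0.0286 (exact permutation test). Of these 3, only Tek was called lower (edgeR, log2 fold change -1.02, adjusted p = 0.010). Cdh5 was not called (edgeR, log2 fold change 0.66, adjusted p = 0.28), and Vwf was too low to be tested. Both had higher means after CNT-7. The sum of 6 fibroblast markers, all too low to be tested, was 0.611 to 1.48 CPM (CNT-7) against 0.164 to 0.759 CPM (CNT-T), with an unadjusted p of 0.0571 as for T cells (exact permutation test). Of these 6, Col1a1 and Dcn had no count in any CNT-T rat and 0.033 to 0.436 CPM in the CNT-7 rats. The part of any of these markers in the results was not tested.

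Of the 9 growth factor genes, 7 had enough counts to be tested, and 4 were significantly higher after CNT-7 at an adjusted p-value under 0.10 (quasi-likelihood test of edgeR, Benjamini-Hochberg adjustment over all genes). Among all 12124 genes tested, 27.9% were called in either direction and 13.9% were called higher. No growth factor gene was called lower by edgeR, against 14.0% of all genes, 0 were lower at an unadjusted p-value under 0.05, and DESeq2 called 0 lower and 4 higher. The median log2 fold change of the 7 genes was 0.48, that of all genes tested was 0.0083, and 3 of the 7 lay above the 90th percentile of all genes. The groups did not overlap in 3 of the 7 genes (Igf1, Pdgfa and Hgf), as in 25.0% of all genes tested. In RNA from sorted cells, a smaller share of cells with a transcript and less transcript per cell cannot be told apart.

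**Figure D1:**
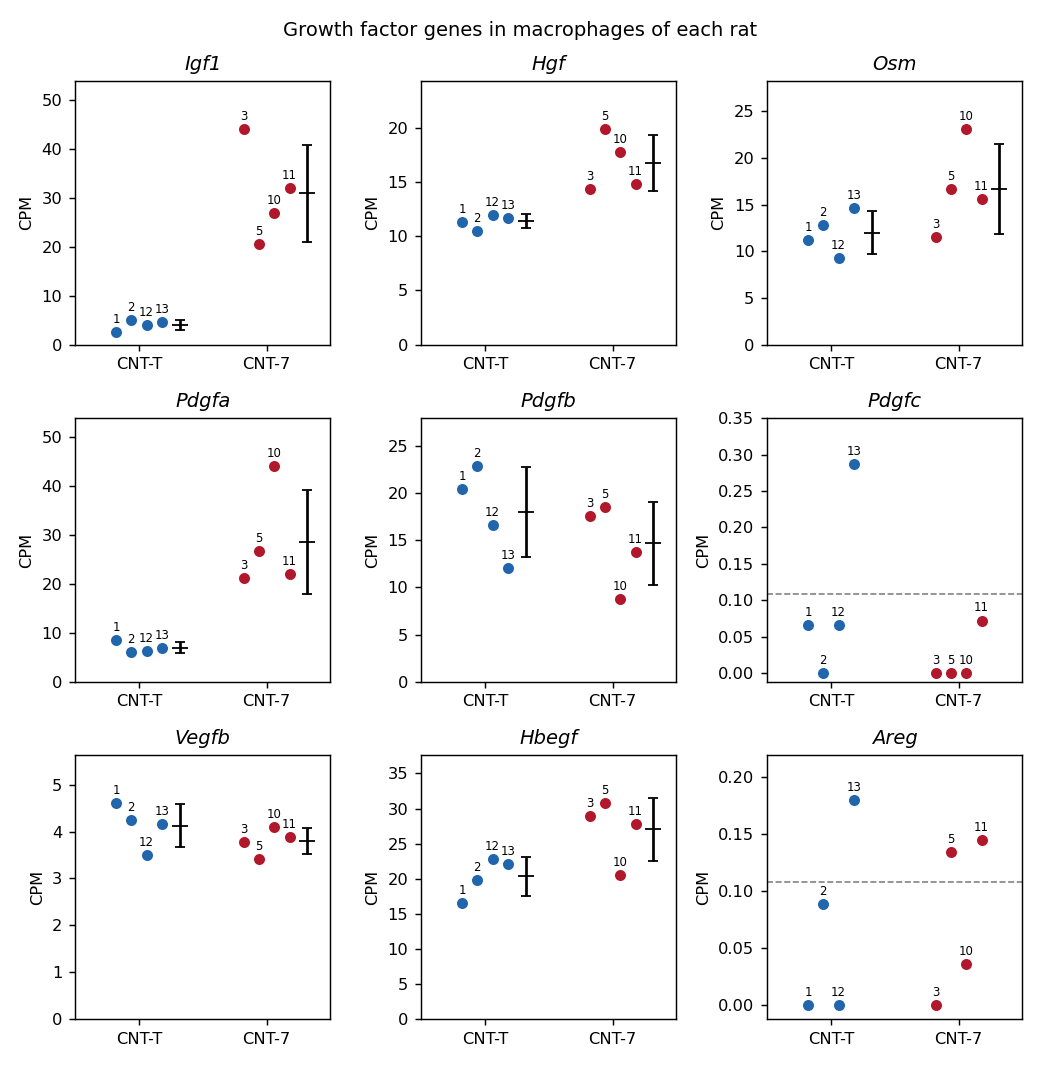
Normalised level (CPM, linear axis) of the 9 growth factor genes in each rat, with CNT-T in blue and CNT-7 in red and the rat number above each point. Black bars give the mean and SD of 4 rats, the dashed line in the Pdgfc and Areg panels marks 3 counts in the library where they weigh most (0.108 CPM), and the scale differs between panels. The 4 CNT-7 rats lie higher than every CNT-T rat for Igf1, Pdgfa and Hgf.

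Igf1 (ENSRNOG00000004517), the gene of insulin-like growth factor 1, showed the largest difference of the 9 genes. It had 44.15, 20.6, 26.9 and 31.95 CPM in CNT-7 rats 3, 5, 10 and 11, and 2.59, 5.04, 4.025 and 4.59 CPM in CNT-T rats 1, 2, 12 and 13. The lowest CNT-7 rat was thus 4.09-fold above the highest CNT-T rat. Group means were 30.9 ± 9.97 CPM and 4.06 ± 1.07 CPM (CNT-7 and CNT-T, SD, n = 4 each). This gave a log2 fold change of 2.93 with a standard error of 0.27 (edgeR, adjusted p = 0.000255), that is 7.61-fold with a 95% interval of 5.02 to 11.6-fold, and 99.07% of all genes tested had a lower value. CNT-7 rat 3 had both the highest Igf1 level and the highest sum of eosinophil markers, 9.34 CPM, whereas the sum was 0.18 to 0.67 CPM in CNT-7 rats 5, 10 and 11. Most of that sum was Ccr3 (8.74 CPM). Without CNT-7 rat 3 the log2 fold change of Igf1 was 2.71 (edgeR, adjusted p = 0.00059).

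Pdgfa (ENSRNOG00000001312), which encodes the A chain of platelet-derived growth factor, was the other gene called with a difference of more than 2-fold, as 4.55% of all genes tested were in this direction. CNT-7 rats 3, 5, 10 and 11 had 21.2, 26.75, 44.1 and 22.0 CPM. CNT-T rats 1, 2, 12 and 13 had 8.51, 6.10, 6.30 and 6.92 CPM. The groups were far apart, and CNT-7 rat 10 stood above the other 3 CNT-7 rats, which lay close together. Group means of 28.5 ± 10.65 CPM and 6.96 ± 1.09 CPM (CNT-7 and CNT-T, SD, n = 4 each) gave a log2 fold change of 2.04 with a standard error of 0.24 (edgeR, adjusted p = 0.00069), or 4.11-fold with a 95% interval of 2.84 to 5.96-fold. Without CNT-7 rat 10 the log2 fold change was 1.75 (edgeR, adjusted p = 0.000199).

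The B chain gene, Pdgfb (ENSRNOG00000017197), did not follow the A chain gene. Its levels were 17.55, 18.5, 8.77 and 13.8 CPM in CNT-7 rats 3, 5, 10 and 11 and 20.5, 22.9, 16.6 and 12.02 CPM in CNT-T rats 1, 2, 12 and 13. The groups overlapped, and CNT-7 rat 10, the highest for Pdgfa, was the lowest of all 8 rats for Pdgfb. Pdgfb had a log2 fold change of -0.29 with a standard error of 0.25 (edgeR, adjusted p = 0.47), and its 95% interval of -0.86 to 0.27 leaves room for a difference in either direction but not for one of the size of Pdgfa. Pdgfc (ENSRNOG00000010695), the C chain gene, had 0, 0, 0 and 2 counts in the CNT-7 rats and 2, 0, 2 and 8 counts in the CNT-T rats, in the same order of rats. Only CNT-T rat 13 exceeded 3 counts, so that Pdgfc was not tested and no fold is given. Platelets, which are rich in PDGF, had summed levels of 7 markers of 0.647 to 1.58 CPM (CNT-7) and 0.458 to 1.29 CPM (CNT-T), with the 4 markers named above at 0. Itga2b, another of the 7, had 0.58 to 1.04 CPM (CNT-7) and 0.43 to 1.29 CPM (CNT-T). It was not called (edgeR, log2 fold change -0.057, adjusted p = 0.93). Ppbp had at most 1 count in any rat, and Gp6 was too low to be tested. Gp6 had 0.072 to 0.82 CPM in the CNT-7 rats, highest in CNT-7 rat 3, and at most 0.029 CPM in the CNT-T rats. The part of platelets in the Pdgfa result was not tested.

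The ratio of Pdgfa to Pdgfb counts within a rat does not depend on how libraries are scaled, and its absolute size depends on the lengths of both transcripts. It was 1.21, 1.44, 5.02 and 1.6 in CNT-7 rats 3, 5, 10 and 11 and 0.42, 0.27, 0.38 and 0.58 in CNT-T rats 1, 2, 12 and 13. Each CNT-7 rat exceeded every CNT-T rat, with mean log2 ratios of 0.95 ± 0.93 for CNT-7 and -1.34 ± 0.46 for CNT-T (SD, n = 4 each; two-sided exact permutation test, p = 0.0286, the smallest that 4 rats against 4 allow, adjusted p = 0.0429 over the 3 ratios examined). The mean log2 ratios differed by 2.29, which restates the levels of both genes given above and is not separate support for the rise of Pdgfa.

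To show the genes of the PDGF chains and Igf1 at the sequence level, the 250 bases before an annotated start are given, from RefSeq promoter windows of build GRCr8, 5′ to 3′ on the strand of the gene. The build differs from the authors' assembly. Windows were found for 8 of the 9 genes, and that of Osm was not used here. Igf1 lies at chr7:24172282-24172531 (plus strand), Pdgfa at chr12:20759116-20759365 (plus strand) and Pdgfb at chr7:113438344-113438593 (minus strand). Capitals mark matches to the motifs searched on both strands, namely the GC box GGGCGG, AP-1 TGANTCA, the STAT-type GAS element TTCNNNGAA, CRE TGACGTCA and the TATA box TATAAA.
Igf1: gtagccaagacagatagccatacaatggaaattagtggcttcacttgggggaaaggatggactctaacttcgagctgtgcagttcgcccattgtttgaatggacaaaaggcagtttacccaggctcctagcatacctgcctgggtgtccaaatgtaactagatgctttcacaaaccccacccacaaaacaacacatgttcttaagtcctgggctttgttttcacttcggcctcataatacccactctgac
Pdgfa: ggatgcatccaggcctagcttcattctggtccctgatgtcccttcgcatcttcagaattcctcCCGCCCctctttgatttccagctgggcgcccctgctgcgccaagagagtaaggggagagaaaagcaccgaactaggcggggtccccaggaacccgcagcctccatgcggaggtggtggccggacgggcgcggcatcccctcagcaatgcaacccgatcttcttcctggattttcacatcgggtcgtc
Pdgfb: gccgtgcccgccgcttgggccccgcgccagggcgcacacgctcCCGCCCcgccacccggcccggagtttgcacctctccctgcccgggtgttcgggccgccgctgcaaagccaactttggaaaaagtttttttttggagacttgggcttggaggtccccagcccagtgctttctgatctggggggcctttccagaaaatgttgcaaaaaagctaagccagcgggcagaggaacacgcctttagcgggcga
Pdgfa and Pdgfb each hold 1 GC box, which begins 187 and 207 bases before the start, and Igf1 holds no match to the 5 motifs. Of all 33469 windows of this length, 30.5% hold a GC box, 6.34% AP-1, 7.67% GAS, 1.59% CRE and 12.9% a TATA box. The GC content of the windows is 46.8% for Igf1, 60.8% for Pdgfa and 63.6% for Pdgfb. The same GC box is thus present in the window of the gene that was higher after CNT-7 and of the gene that was not called. Among the other 5 windows, Vegfb has 4 GC boxes, Areg has a GC box, a CRE and a TATA box, and those of Pdgfc, Hbegf and Hgf have no match.

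Hgf (ENSRNOG00000007027), the gene of hepatocyte growth factor, rose by a smaller step and with little spread. Its levels were 14.4, 19.95, 17.8 and 14.9 CPM in CNT-7 rats 3, 5, 10 and 11 and 11.3, 10.5, 11.98 and 11.7 CPM in CNT-T rats 1, 2, 12 and 13. Again each CNT-7 rat exceeded every CNT-T rat, the lowest of them by 1.2-fold over the highest CNT-T rat. The log2 fold change of Hgf was 0.56, standard error 0.12 (edgeR, adjusted p = 0.0095), or 1.48-fold with a 95% interval of 1.23 to 1.78-fold. CNT-7 rat 5, the highest for Hgf, also had the highest levels of the T cell gene Cd3e (2.11 CPM, against at most 0.50 CPM in the other rats) and the highest sum of B cell markers, 2.78 CPM, against at most 0.46 CPM in the other rats. The sums of fibroblast markers (1.48 CPM, against at most 1.01 CPM) and of mesothelial markers (0.905 CPM, against at most 0.429 CPM) were also highest in this rat. The part of these cells in the Hgf result was not tested. Without CNT-7 rat 5 the log2 fold change of Hgf was 0.47 (edgeR, adjusted p = 0.026).

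Hbegf (ENSRNOG00000018646), which encodes the membrane-anchored HB-EGF, was the gene just inside the threshold. CNT-7 rats 3, 5, 10 and 11 had 29.0, 30.8, 20.5 and 27.8 CPM, and CNT-T rats 1, 2, 12 and 13 had 16.6, 19.8, 22.8 and 22.1 CPM. The groups overlapped, because CNT-7 rat 10 lay below CNT-T rats 12 and 13. Hbegf differed by a log2 fold change of 0.42, standard error 0.14 (edgeR, adjusted p = 0.069), with a 95% interval of 1.07 to 1.67-fold. The adjusted p-value of edgeR was above 0.10 without CNT-7 rat 3, 5 or 11 (0.15, 0.18 and 0.11) and without CNT-T rat 1 or 2 (0.14 for each). It stayed below 0.10 without CNT-7 rat 10 (0.014) and without CNT-T rat 12 or 13 (0.082 and 0.087).

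Osm (ENSRNOG00000024390), the gene of oncostatin M, was just outside the threshold. It had 11.5, 16.7, 23.15 and 15.6 CPM in CNT-7 rats 3, 5, 10 and 11 and 11.2, 12.8, 9.27 and 14.7 CPM in CNT-T rats 1, 2, 12 and 13. Of the CNT-7 rats, 3 exceeded every CNT-T rat, while CNT-7 rat 3 lay among them. Osm differed by a log2 fold change of 0.48, standard error 0.21 (edgeR, unadjusted p = 0.047, adjusted p = 0.14). Without CNT-7 rat 3 the log2 fold change was 0.63 and the adjusted p-value 0.056 (edgeR), and without CNT-7 rat 10, the highest, it was 0.29 and 0.33.

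Vegfb (ENSRNOG00000021156), the gene of VEGF-B, had the narrowest range of the genes tested. It had 3.78, 3.42, 4.10 and 3.89 CPM in CNT-7 rats 3, 5, 10 and 11 and 4.62, 4.245, 3.50 and 4.16 CPM in CNT-T rats 1, 2, 12 and 13. The groups overlapped, with a log2 fold change of -0.12, standard error 0.15 (edgeR, adjusted p = 0.63), and a 95% interval of 0.735 to 1.16-fold. Areg (ENSRNOG00000002754), the gene of amphiregulin, had 0, 4, 1 and 4 counts in CNT-7 rats 3, 5, 10 and 11 and 0, 3, 0 and 5 counts in CNT-T rats 1, 2, 12 and 13. These counts are at or close to the floor of 3 counts, and neither a difference nor its absence was detectable at this depth. The ratio of Areg to Hbegf carries no more information for that reason (two-sided exact permutation test, p = 0.97, adjusted p = 0.97).

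**Figure D2:**
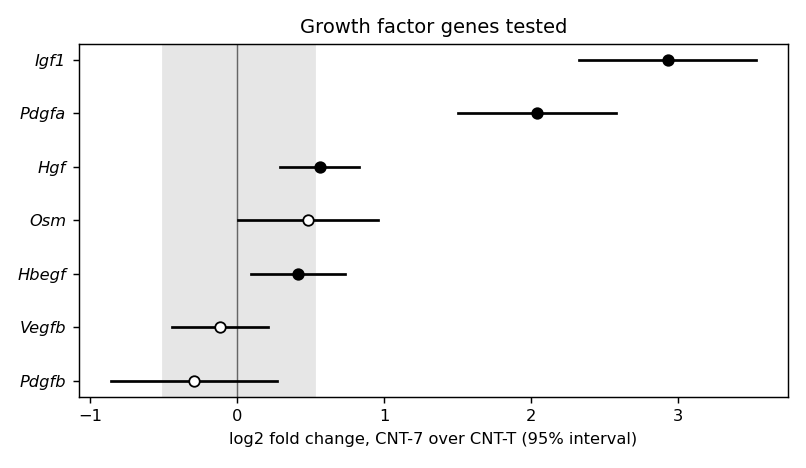
Log2 fold change, CNT-7 relative to CNT-T (horizontal axis), for the 7 growth factor genes tested, with 95% intervals from edgeR's quasi-likelihood fit. Filled points passed an adjusted p-value of 0.10, open points did not, and the grey band holds the middle of all 12124 genes tested, from the 10th percentile (-0.51) to the 90th (0.53). The intervals of Igf1 and Pdgfa lie wholly above the band.

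The spread between rats differed by gene. Among the 7 genes tested, the coefficient of variation in the CNT-7 rats was between 7.5% for Vegfb and 37.3% for Pdgfa, and in the CNT-T rats between 5.73% for Hgf and 26.4% for Pdgfb. CNT-7 rat 10 was the highest CNT-7 rat for Pdgfa, Osm and Vegfb and the lowest for Pdgfb and Hbegf. CNT-7 rat 5 was the highest for Pdgfb, Hbegf and Hgf and the lowest for Igf1 and Vegfb. No rat was thus high or low across all of these genes.

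Other growth factors of the same families were examined as a list of 22 genes, of which 12 were tested, 2 were called higher and 2 lower, which is 33.3% of those tested beside 27.9% of all genes. Their median log2 fold change was 0.077. Vegfa, the main angiogenic factor of the VEGF family, had 1.69 to 7.12 CPM in the CNT-7 rats but 0.26 to 1.51 CPM in the CNT-T rats, and rose by a log2 fold change of 2.41 (edgeR, standard error 0.59, adjusted p = 0.018). The log2 fold change of Vegfa was 3.08 without CNT-T rat 13 and 1.88 without CNT-7 rat 10, and it stayed called with each rat left out. Ereg (epiregulin), a ligand of the EGF receptor like HB-EGF and amphiregulin, rose from 0.641 ± 0.269 CPM to 2.98 ± 0.956 CPM (SD, n = 4 each; edgeR, log2 fold change 2.22 with standard error 0.36, adjusted p = 0.0028). The genes that were called lower, named after their values were seen, were Nrg4 (log2 fold change -1.32, adjusted p = 0.052) and Vegfd (-1.11, adjusted p = 0.038). The number called lower was 1 without CNT-7 rat 3 or 5 or CNT-T rat 13 and 0 without CNT-T rat 12, and the number called higher was 5 without CNT-T rat 13. Lif, which like Osm signals through Il6st, had a log2 fold change of 0.42 (adjusted p = 0.13). Igf2, Pdgfd, Pgf, Epgn and Il11 had at most 3 counts in any rat, and Nrg3 was not analysed here.

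The ratio of Vegfb to Vegfa restates the levels of both genes given above and is not separate support for the rise of Vegfa. The ratio of Vegfb to Vegfa counts within a rat ran from 0.58 to 2.28 in the CNT-7 rats and from 2.74 to 12.5 in the CNT-T rats. The groups did not overlap (two-sided exact permutation test, p = 0.0286, adjusted p = 0.0429), and CNT-T rat 13 lay nearest to the CNT-7 rats.

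**Figure D3:**
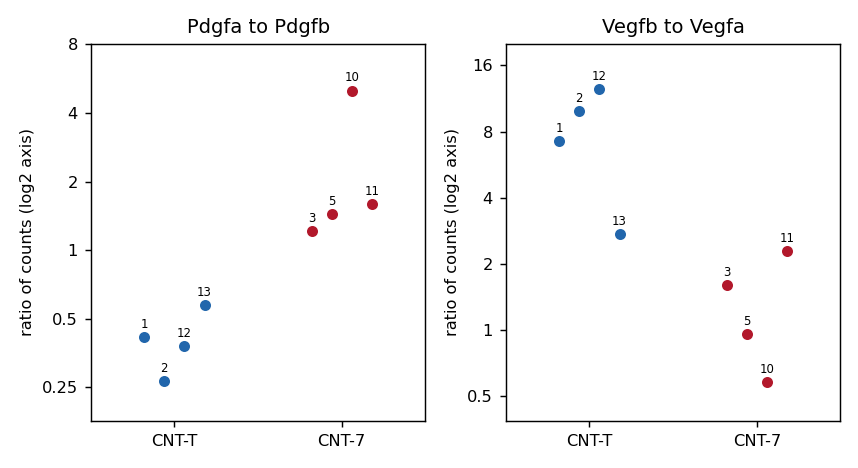
Ratio of the counts of Pdgfa to Pdgfb and of Vegfb to Vegfa in each rat, on log2 axes, with 0.5 added to each count, CNT-T in blue, CNT-7 in red and the rat number above each point. In both panels the 4 CNT-7 rats do not overlap with the 4 CNT-T rats, the Pdgfa to Pdgfb ratio being higher and the Vegfb to Vegfa ratio lower after CNT-7.

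Of 18 receptor genes 10 were tested, 2 were called higher and 2 lower (40% of those tested, beside 27.9% of all genes). Flt1, the receptor of VEGF-B and VEGF-A, was at 20.7 ± 4.20 CPM with CNT-7 and 7.30 ± 1.28 CPM with CNT-T (SD, n = 4 each), a rise of 1.5 on the log2 scale (edgeR, standard error 0.18, adjusted p = 0.00069). Igf2r, which clears IGF-2 and sorts lysosomal enzymes, rose with a log2 fold change of 0.56 (adjusted p = 0.014), and the insulin receptor gene Insr fell with -0.39 (adjusted p = 0.0055). Nrp1, a coreceptor of VEGF and named after its values were seen, was the other gene called lower (log2 fold change -1.04, adjusted p = 0.080), and its groups overlapped. Without any rat other than CNT-7 rat 11, 1 receptor gene was called lower, which was Insr. Igf1r, the receptor of IGF-1, had 2.66 to 5.10 CPM (CNT-7) and 3.10 to 4.77 CPM (CNT-T; log2 fold change -0.12, adjusted p = 0.77). Egfr, which binds HB-EGF, had 5.61 to 7.20 and 6.33 to 11.7 CPM (adjusted p = 0.37).

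Several receptors of the other growth factors were at or near the detection limit in these macrophages. Met, the receptor of HGF, had at most 3 counts in any rat, and Osmr, the receptor of oncostatin M, at most 6. Pdgfra and Pdgfrb had at most 12 and 7 counts, Erbb2 at most 2, and Erbb4 had 0 counts in every rat. Erbb3, a receptor of neuregulins, was in contrast abundant, at 134 to 185 CPM (CNT-7) and 126 to 137.5 CPM (CNT-T), and was not called (adjusted p = 0.275). Il6st, the shared subunit of the oncostatin M receptors, was present at 18.7 to 21.8 CPM (CNT-7) and 19.7 to 25.5 CPM (CNT-T; adjusted p = 0.33), and Lifr, which also binds oncostatin M in rodents, was not called (adjusted p = 0.65).

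Growth factors need to be cut, activated or held by other proteins, and 35 such genes were examined. Of 19 tested, 8 were called higher and 1 lower (47.4%, beside 27.9% of all genes), with a median log2 fold change of 0.46. Furin, a convertase that trims the precursors of several growth factors including the PDGF A chain, rose from 64.95 ± 7.87 CPM to 126 ± 8.68 CPM (SD, n = 4 each; edgeR, log2 fold change 0.96 with standard error 0.096, adjusted p = 0.00035). Plau, the urokinase gene, whose product can activate HGF, had 212, 130, 63.9 and 99.1 CPM in CNT-7 rats 3, 5, 10 and 11 and 23.1 to 27 CPM in the CNT-T rats (log2 fold change 2.33, adjusted p = 0.0011). St14 (matriptase), another activator of HGF, fell from 167 ± 25.9 CPM to 80.4 ± 22.9 CPM (log2 fold change -1.05, adjusted p = 0.0062). Genes with roles in HGF activation thus moved in opposite directions.

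For HB-EGF, the membrane partner Cd9 rose most, from 10.35 ± 4.24 CPM to 128 ± 52.4 CPM (SD, n = 4 each; edgeR, log2 fold change 3.63 with standard error 0.39, adjusted p = 0.00042). The sheddases Adam10 (log2 fold change 0.37, adjusted p = 0.0084), Adam8 (2.08, adjusted p = 0.00049) and Adam9 (0.46, adjusted p = 0.088) were higher after CNT-7. Adam17, the main sheddase of the EGF receptor ligands, was not called (0.13, adjusted p = 0.40), nor was Rhbdf2, which carries ADAM17 to the cell surface (0.077, adjusted p = 0.70). Adam9 was above 0.10 (edgeR, adjusted p) without CNT-7 rat 5 or 10 (0.12 and 0.17) or CNT-T rat 1, 2 or 12 (0.15, 0.12 and 0.21), and with low against high rat numbers as a covariate (0.106). Of the IGF binding protein genes, Igfbp6 rose (log2 fold change 1.43, adjusted p = 0.039, and 0.12 without CNT-7 rat 5). Igfbp3 was not called (adjusted p = 0.69), and Igfbp1 and Igfbp7 had 0 counts in every rat. Sparc, which binds PDGF and was named after its values were seen, had 0.64 to 1.95 CPM in the CNT-7 rats and at most 0.088 CPM in the CNT-T rats (adjusted p = 0.0012). Pappa was not analysed here.

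Among 21 feedback and response genes of growth factor and cytokine signalling, 18 were tested, 4 were called higher and 3 lower (38.9%, beside 27.9% of all genes), with a median log2 fold change of 0.097. The genes that rose were Cish (log2 fold change 3.46), Socs3 (3.0) and Socs1 (2.45), inhibitors of cytokine receptor signalling, and Dusp5 (1.43), a nuclear phosphatase of ERK. Socs3 ran from 19.7 to 41.8 CPM (CNT-7) and from 1.62 to 5.43 CPM (CNT-T). Dusp6 (-1.09), a cytoplasmic phosphatase of ERK, and Spred1 (-0.65) and Spred2 (-0.71), inhibitors of the Ras pathway, fell. The adjusted p-values of these 7 genes lay between 0.00040 and 0.016 (edgeR's quasi-likelihood test). Irs1 and Irs2, which pass on the signal of the IGF-1 and insulin receptors, were not called (log2 fold changes 0.11 and -0.30, adjusted p = 0.57 and 0.14).

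**Figure D4:**
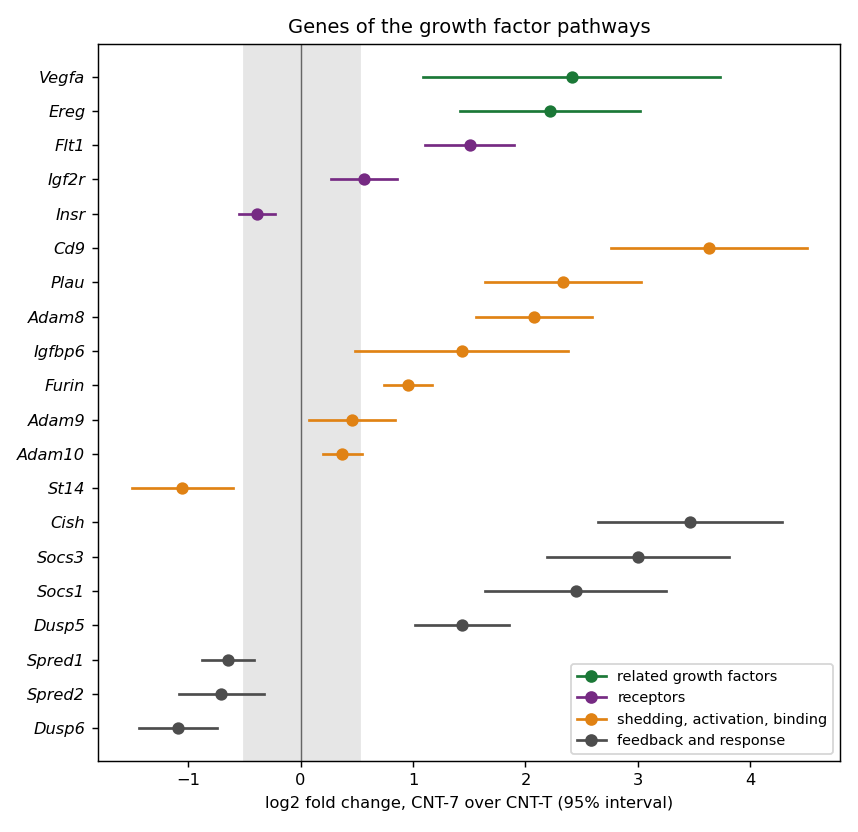
Log2 fold change, CNT-7 relative to CNT-T, with 95% intervals (edgeR) for 20 called genes of the growth factor pathways, chosen among called genes with groups that do not overlap and a mean of at least 1 CPM, coloured by list. The grey band runs from the 10th to the 90th percentile of all genes tested, and Cd9, Cish and Socs3 lie farthest above it. The intervals of Dusp6 and St14 lie wholly below the band. The points of Spred1 and Spred2 lie below it, but their intervals reach into it.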

How the data were processed

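Per the labels and the methods of the study, RNA of sorted peritoneal macrophages from 4 CNT-7 and 4 CNT-T rats was sequenced from TruSeq Stranded mRNA libraries. The authors ran the ARMOR workflow, quantified reads with Salmon (version not given in the sources used here) against Ensembl cDNA of Rnor_6.0, and imported them with tximeta. The deposited table holds estimated counts of each gene, already whole numbers and not normalized. Estimated counts divide reads among similar transcripts, which can shift values between related genes.

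Counts were tested with edgeR 4.0.16 in R 4.3.3 (quasi-likelihood, TMM, filterByExpr with a minimum count of 10 and total of 15) over all genes, with Benjamini-Hochberg adjustment at 0.10 as in the study. A standard error is the absolute log2 fold change over the root of the F statistic. Ratios had 0.5 added to each count. Nothing in the labels states separate cages or batches, and the p-values measure the spread between these rats. Within groups, Pearson's r of log2 CPM across genes was between 0.97 and 0.99, and no library copied another. The 95% intervals come from the same fit and include the spread between rats, whereas the floor of 3 counts covers counting error alone.

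The growth factor genes and the lists were chosen with earlier results of these data known. Genes named were all 9 growth factor genes and, of each related list, up to 8 called genes with no overlap and a mean of at least 1 CPM. Other genes of the lists are named as not called, not tested or at or near 0, and Nrg4, Vegfd, Nrp1 and Sparc, which fall outside the rule, were named after their values were seen. Alternatives were DESeq2 1.42.0, other normalizations and filters, stricter thresholds, low against high rat numbers as a covariate, and each rat left out. Scripts were tested on simulated data. A further marker gene is not reported here.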

Additional observations from a re-analysis of the deposited data

Results flagged for a closer look

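Among 57 groups of 4 rats examined, a single rat stood apart from the other 3 in 1 group, judged by its gap relative to the full spread of the group, and chance gives 2.85 such groups. Adam9 was 355 CPM in CNT-7 rat 10 and between 221 and 238 CPM in the other CNT-7 rats.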

How the results depend on the processing

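Igf1, Pdgfa and Hgf kept their direction and an adjusted p-value under 0.05 in all fits tried by edgeR or DESeq2, including those with each rat left out, which gave log2 fold changes of 2.71 to 3.08, 1.75 to 2.16 and 0.47 to 0.63. The number of growth factor genes called higher was 3 to 4 with each rat left out, called lower it was always 0, and it fell to 2 when at least a 2-fold change was required. That requirement also left 1 receptor gene higher and 1 lower, 5 genes of shedding, activation and binding higher, and 1 feedback gene lower. At an adjusted p-value under 0.05, 1 related growth factor and 1 receptor gene were lower, with low against high rat numbers as a covariate 1 receptor gene was lower, and with at least 10 counts in every rat 1 related growth factor was higher, because genes had been left out of the test. With each rat left out, related growth factors called higher numbered 2 to 5 and lower 0 to 2, and receptors called lower 1 to 2. The difference in the log2 ratio of Pdgfa to Pdgfb stayed between 1.83 and 2.52 and that of Vegfb to Vegfa between -3.02 and -2.22. Their adjusted p-values were up to 0.086 when a CNT-7 rat was left out (exact permutation test). The log2 ratio of Areg to Hbegf changed sign, from 0.090 to -0.060 with 1 added to each count and between -0.49 and 0.81 with a rat left out. Mast cell and B cell marker sums changed sign with a rat left out (-0.017 to 0.79 and -0.10 to 0.77 CPM), and the endothelial difference was 0.031 as a mean of log2 CPM. The causes of the other changes were not tested. No paired analysis was possible because the groups share no rat number.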
